A study of Caenorhabditis elegans with 18 samples.

Results

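The comparison set nhr-10 deletion animals of Caenorhabditis elegans given vitamin B12 together with propionate beside the same animals given vitamin B12 alone. It compared 4 of the series' 18 RNA-seq libraries, 2 per treatment, chosen by genotype and treatment and not by any measured value. All 20953 genes of the deposited table were covered. Of these, 15575 had at least 1 FPKM in at least 2 of the 18 libraries and were tested. The spread behind each p-value and interval was estimated from all 18 libraries. These include untreated libraries of each genotype, given neither vitamin B12 nor propionate. FPKM counts sequenced fragments after scaling to gene length and to library size, so levels can be compared between genes. All animals came from larvae held in L1 arrest for 18 hours, were treated for 48 hours and were collected whole as L4 larvae, about 3000 animals per library. The nhr-10 mutants carried the deletion tm4695, and their strain name was not given. Vitamin B12 was at 20 nM in both treatments and propionate at 40 mM in one. The response was read against the same treatment pair in wild type (N2) and in nhr-68 mutants (deletion gk708, strain VC1527), with 4 libraries each. The labels do not say that duplicates were separate cultures, so p-values may measure technical spread only. In whole animals fewer cells of a type and less RNA per cell cannot be told apart.

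Propionate is a toxic short-chain fatty acid that C. elegans can break down along either of 2 routes. The canonical route runs through propionyl-CoA carboxylase and methylmalonyl-CoA mutase and needs vitamin B12 as a cofactor. The alternative route, the propionate shunt, turns propionyl-CoA into acetyl-CoA by a beta-oxidation-like series of steps. nhr-10 and nhr-68 encode nuclear hormone receptors, transcription factors known to switch on shunt genes when propionate accumulates, and vitamin B12 normally keeps those genes low. The comparison asks which genes answer excess propionate when nhr-10 is missing.

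nhr-10 itself (III:7112295-7115438, build WBcel235) read 7.25 and 7.40 FPKM on B12 and 9.29 and 10.3 FPKM with propionate in the nhr-10 mutants. In wild type it read 19.8 and 12.2 FPKM on B12 and 33.5 and 14.9 FPKM with propionate. All 4 mutant libraries lay below all 4 wild-type libraries, and the reads that remained come from a gene of which the deleted stretch is not stated in the sources used here. nhr-68, the partner receptor, read 5.18 and 13.1 FPKM on B12 and 10.8 and 18.2 FPKM with propionate in nhr-10 mutants, against 48.7 to 55.9 FPKM in the 4 wild-type libraries. Neither gene passed the test for a propionate response in nhr-10 mutants (adjusted p = 0.52 for nhr-10 and 0.30 for nhr-68).

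The 5 shunt genes did not respond to propionate in nhr-10 mutants at the level the test could detect. acdh-1 (I:6497436-6499560), the acyl-CoA dehydrogenase of the first step, read 0.07 and 0.25 FPKM on B12 and 0.16 and 0.44 FPKM with propionate, where wild type went from 65.5 and 116 FPKM to 2070 and 1397 FPKM. ech-6, the enoyl-CoA hydratase, read 90.2 and 94.2 FPKM on B12 and 120 and 122 FPKM with propionate in the mutants. In wild type ech-6 read 177 and 173 FPKM, then 898 and 843 FPKM with propionate. The mutants stayed below every wild-type propionate library for both genes, by several orders of magnitude for acdh-1. hach-1, the hydroxyacyl-CoA hydrolase, read 45.6 and 54.7 FPKM on B12 and 50.4 and 58.5 FPKM with propionate. hphd-1, the hydroxyacid-oxoacid transhydrogenase, read 14 and 18.3 FPKM, then 16.36 and 24.46 FPKM. alh-8, the semialdehyde dehydrogenase of the last step, read 242 and 227 FPKM, then 234 and 297 FPKM. The treatment groups overlapped for all but ech-6, where the propionate libraries both lay above, as for 30% of all genes tested.

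**Figure D1:**
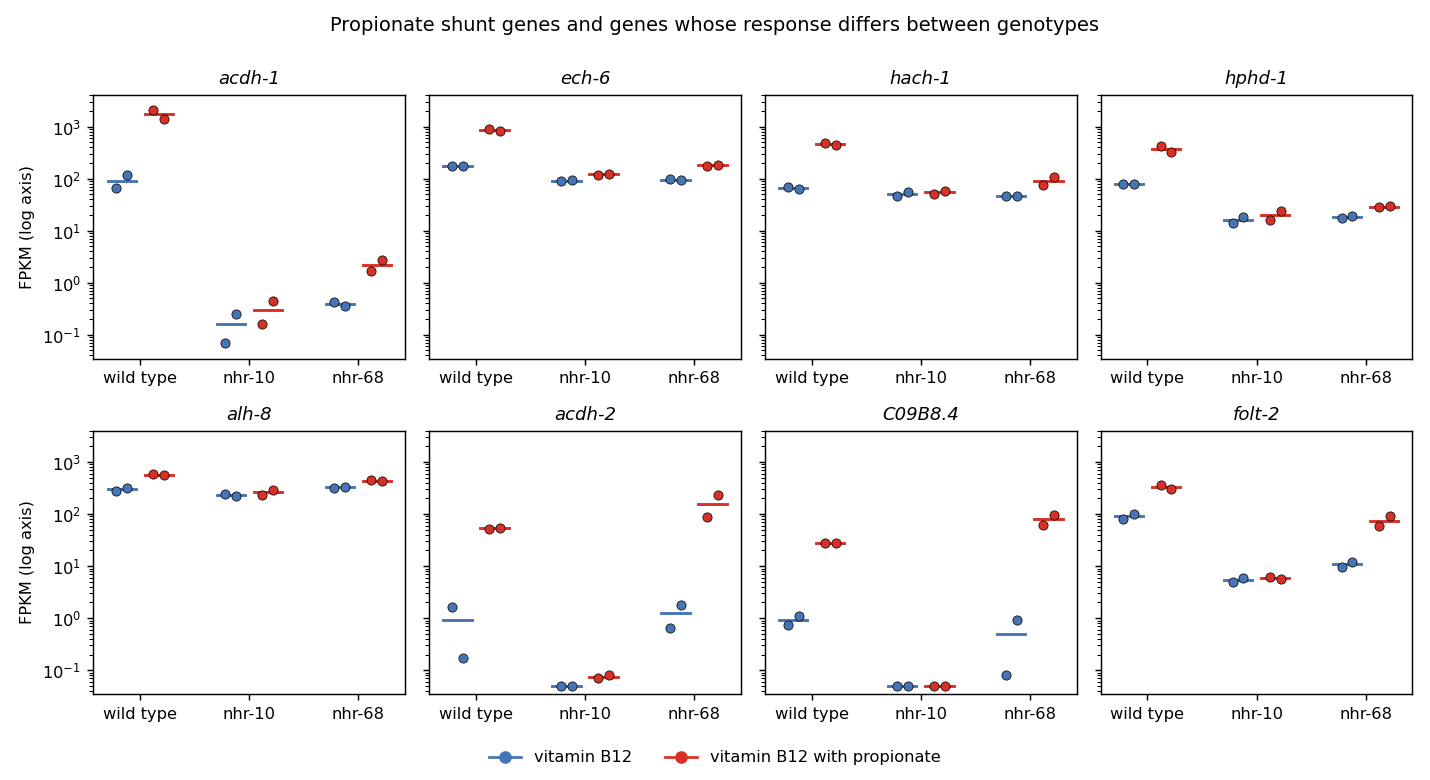
FPKM on a log axis in the 12 libraries of the 3 genotypes, for the 5 shunt genes and for acdh-2, C09B8.4 and folt-2; each point is a library, each line the mean of 2, and values below 0.05 are drawn at 0.05. The nhr-10 pairs lie level, while the wild-type pairs step up, and acdh-2, C09B8.4 and folt-2 also step up in nhr-68 mutants.

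In limma's test, with Benjamini-Hochberg adjustment over all 15575 genes, 0 of the 5 shunt genes passed in nhr-10 mutants and 5 of 5 passed in wild type. The background was 7.24% of all genes tested passing in nhr-10 mutants and 0.411% in wild type. On the log2(FPKM + 1) scale acdh-1 differed by 0.16 (95% interval -0.52 to 0.84) in the mutants and by 4.27 in wild type. hach-1 differed by 0.12 (-0.36 to 0.60) in the mutants and by 2.78 in wild type. Every one of the 5 intervals in the mutants ended below 0.85, below the wild-type value of each gene. The difference between the responses was tested directly, and all 5 were lower in nhr-10 mutants than in wild type. That difference was -4.11 for acdh-1 (adjusted p = 0.0018), -2.66 for hach-1 (0.0035), -1.92 for ech-6 (0.0063), -1.93 for hphd-1 (0.015) and -0.77 for alh-8 (0.036), where 4.96% of all genes tested passed as lower and 3.53% as higher. acdh-1, ech-6 and hach-1 kept this call when any of the 8 libraries was left out, hphd-1 lost it only without wild-type B12 replicate 2 (adjusted p = 0.064), and alh-8 kept it in 2 of 8 fits (highest adjusted p = 0.14). With stage scores, made from collagen, moulting and vitellogenin genes, as covariates, all 5 differences were larger in size. They were -5.50 for acdh-1, -3.47 for hach-1, -2.49 for ech-6, -3.26 for hphd-1 and -1.03 for alh-8. In that fit acdh-1 and hphd-1 kept the call (adjusted p = 0.0072 for both) and hach-1, ech-6 and alh-8 lost it (0.054, 0.14 and 0.996). Without nhr-10 B12 replicate 1 and propionate replicate 2 together, ech-6 (0.086), hphd-1 (0.068) and alh-8 (0.17) lost it. With a spread estimated from these 4 groups alone only hach-1 kept it (adjusted p = 0.034; 0.066 for acdh-1, 0.050 for ech-6, 0.14 for hphd-1 and 0.15 for alh-8).

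The nhr-68 mutants stood between these genotypes for the shunt genes but did not differ from nhr-10 mutants by the test. acdh-1 read 0.42 and 0.36 FPKM on B12 and 1.68 and 2.75 FPKM with propionate in nhr-68 mutants. The difference of the nhr-10 response from the nhr-68 response was -1.03 for acdh-1 (adjusted p = 0.91) and -0.52 for ech-6 (-1.07 to 0.03, adjusted p = 0.92). A smaller response in nhr-10 than in nhr-68 mutants lies within that interval, so the test does not show that both act alike.

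The nhr-10 and nhr-68 responses differed at 5 genes (0.0321% of genes tested, 840 at an unadjusted p under 0.05), all lower in nhr-10 mutants. Other settings gave differences in both directions, with 19 higher and 11 lower without the filter on low values, and 23 higher and 44 lower without nhr-10 propionate replicate 1. acdh-2 (II:5544778-5547492), a close relative of acdh-1, was listed at 0 in both nhr-10 libraries on B12 and at 0.07 and 0.08 FPKM with propionate. In nhr-68 mutants it went from 0.66 and 1.81 FPKM to 86.03 and 229.25 FPKM. C09B8.4 (X:6018442-6019936), a gene without an assigned role, was listed at 0 in all 4 nhr-10 libraries. In nhr-68 mutants it rose from 0.08 and 0.91 FPKM to 61.2 and 96.8 FPKM, and in wild type from 0.73 and 1.11 FPKM to 27.5 and 27.8 FPKM. Both genes were thus near or at 0 with propionate when nhr-10 was missing and rose in both other genotypes.

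folt-2, a folate transporter, read 4.99 and 5.91 FPKM on B12 and 6.06 and 5.72 FPKM with propionate in nhr-10 mutants, and 9.55 and 12.04 FPKM against 58.4 and 91.4 FPKM in nhr-68 mutants. dhs-25, a short-chain dehydrogenase, read 32.01 and 34.86 FPKM, then 24.4 and 32.5 FPKM in nhr-10 mutants. In nhr-68 mutants dhs-25 read 56.49 and 67.96 FPKM, then 238 and 297 FPKM. Both were flat or overlapping in nhr-10 mutants and rose in the others. The differences of the responses were -5.93 for acdh-2 (adjusted p = 0.0022), -5.76 for C09B8.4 (2.4e-05), -2.56 for folt-2 (0.0029), -2.32 for dhs-25 (0.0023) and -2.55 for ugt-53, a glucuronosyltransferase (0.019). The calls of acdh-2, C09B8.4, folt-2 and dhs-25 held whichever of the 8 libraries was left out, and with the stage scores as covariates. acdh-2 lost its call with a pseudocount of 0.1 (adjusted p = 0.11), and acdh-2 (0.075) and folt-2 (0.082) lost theirs without nhr-10 B12 replicate 1 and propionate replicate 2 together. ugt-53 kept its call in 2 of the 8 (highest adjusted p = 0.18, without nhr-68 B12 replicate 1). With a spread estimated from these groups alone, C09B8.4 kept its call (adjusted p = 0.046). RSEM shares reads between alike genes, so values of acdh-1 and acdh-2 are uncertain against each other.

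In the canonical route both subunit genes of propionyl-CoA carboxylase rose and the other 5 genes did not pass. pccb-1, the beta subunit of propionyl-CoA carboxylase, read 74.5 and 87.0 FPKM on B12 and 130 and 159 FPKM with propionate, a rise of 0.83 ± 0.17 (SE) on the log2 scale (adjusted p = 0.020). pcca-1, its alpha subunit, read 98.3 and 120 FPKM on B12 and 153 and 191 FPKM with propionate, a rise of 0.65 ± 0.16 (adjusted p = 0.034). The propionate libraries lay above the B12 libraries for both subunits, as they did for 30% of all genes tested. In wild type both genes were lower on average with propionate (-0.61 and -0.55, not called). The 7 canonical genes gave 2 higher and 0 lower, beside 4.55% of all genes higher and 2.68% lower, with a list median of 0.36 against 0.04 over all genes. mmcm-1, the mutase, had 0.39 (adjusted p = 0.059), and mce-1, mmaa-1, mmab-1 and cblc-1 did not pass. Neither call was left without propionate replicate 2 (adjusted p = 0.22 to 0.29) or without B12 replicate 1 (0.15 to 0.21).

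Across all genes propionate raised 709 and lowered 418 in nhr-10 mutants, 1127 in all, of which 481 and 284 changed by at least 2-fold on the log2(FPKM + 1) scale. The same treatment gave 64 calls in wild type, 42 higher and 22 lower, and 65 in nhr-68 mutants (0.417%), 45 higher and 20 lower. Of the 1127 genes, 0 also passed the direct test against the nhr-68 response. The larger count thus does not show a larger response than in nhr-68 mutants. The difference of the nhr-10 response from the wild-type response passed at 1323 genes (8.49%), 550 higher and 773 lower in the mutants. Under median-ratio scaling it passed at 1522, 768 higher and 754 lower, so the larger number of lower differences depended on the scaling. These counts rested on single libraries. Without propionate replicate 2 the nhr-10 response kept 73 calls and without B12 replicate 1 it had 118, and with both left out it had 13. Without propionate replicate 1 or B12 replicate 2 it had 1112 and 916. With a spread estimated from these 4 libraries alone it had 0 calls (2676 at an unadjusted p under 0.05). The 1323 differences fell to between 45 and 60 when nhr-10 propionate replicate 2, nhr-10 B12 replicate 1, wild-type propionate replicate 2 or wild-type B12 replicate 2 was left out. They became 856 without wild-type B12 replicate 1 and 2258 without wild-type propionate replicate 1.

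**Figure D2:**
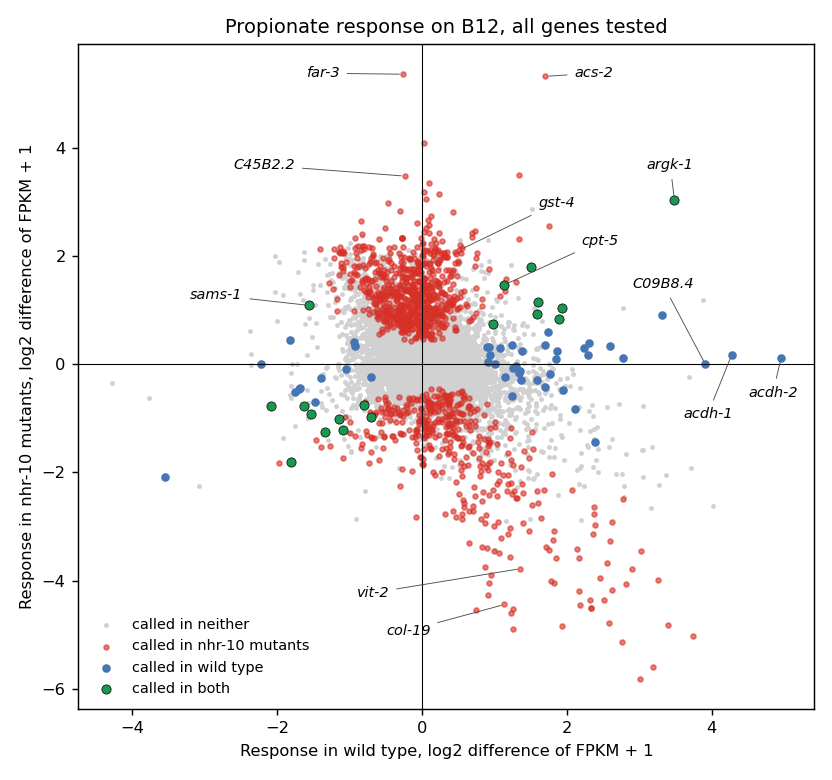
Response of each tested gene to propionate on B12, as the log2 difference of FPKM + 1, in wild type (horizontal axis) and in nhr-10 mutants (vertical axis); colours mark the genes called in either. acdh-1, acdh-2 and C09B8.4 lie far right at about 0 on the vertical axis, far-3 and C45B2.2 high at about 0 on the horizontal axis, argk-1 high on both, and col-19 and vit-2 low.

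Some genes answered propionate with and without nhr-10. Of the genes raised in wild type, 8 of 42 (19.1%) were also raised in nhr-10 mutants, or 1.13% of the nhr-10 list. Of those lowered in wild type, 9 of 22 (40.9%) were also lowered. With nhr-68 mutants the shared part was 21 of 45 raised genes (46.7%) and 14 of 20 lowered genes (70%). Over all genes tested, 4.55% were raised and 2.68% lowered in nhr-10 mutants. The 3 responses share no library, but the same estimate of each gene's spread served all 3, so their calls were not independent. The genes called in all 3 genotypes were argk-1, cpt-5 and hmit-1.2, which rose, and Y54G2A.10, lys-2, Y105C5B.15, K10D11.2, C17H12.8 and dod-24, which fell. Of these, C17H12.8 alone differed from the wild-type response. It changed by -0.77 in nhr-10 mutants and -2.09 in wild type, a difference of 1.33 (limma adjusted p = 0.026). dod-24 changed by -0.78 and -1.63, and that difference was not called (0.093).

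argk-1 (V:16103894-16105952), an arginine kinase of the phosphagen system, went from 15.5 and 14.8 FPKM on B12 to 108 and 162 FPKM with propionate in nhr-10 mutants. In wild type it went from 4.46 and 6.57 FPKM to 55.6 and 90.2 FPKM. Its rise was 3.04 ± 0.32 in nhr-10 mutants (adjusted p = 0.00054) and 3.48 in wild type, and the difference between them was -0.44 (95% interval -1.44 to 0.55). cpt-5, a carnitine acyltransferase, went from 11.7 and 13.6 FPKM to 32.5 and 40.9 FPKM in nhr-10 mutants, a rise of 1.46 ± 0.19 (adjusted p = 0.0022) beside 1.13 in wild type. Y54G2A.10 fell from 19.7 and 22.5 FPKM to 5.52 and 5.06 FPKM in nhr-10 mutants, by 1.81 on the log2 scale and by 1.81 in wild type too. The treatment groups stood apart for all of these in nhr-10 mutants. Over all genes tested, 30% had both propionate libraries above and 20% both below. Of the genes called in all 3 genotypes, Y54G2A.10 alone kept its nhr-10 call with the stage scores as covariates (adjusted p = 0.038). In that fit argk-1 rose by 3.27 (0.11), cpt-5 by 1.25 (0.42) and hmit-1.2 by 1.63 (0.30). argk-1, cpt-5, hmit-1.2, a proton and myo-inositol cotransporter, and Y54G2A.10 kept their calls whichever of the 4 nhr-10 libraries was left out. The other 5 lost theirs without propionate replicate 2 (highest adjusted p = 0.30) or without B12 replicate 1 (0.22).

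The opposite direction was seen at sams-1, the S-adenosylmethionine synthetase that makes the main methyl donor. It read 202 and 182 FPKM on B12 and 303 and 548 FPKM with propionate in nhr-10 mutants, and 191 and 267 FPKM against 73.4 and 79.1 FPKM in wild type. It rose by 1.08 ± 0.28 in the mutants (adjusted p = 0.038) and fell by 1.56 in wild type (adjusted p = 0.036). The difference of 2.64 passed (adjusted p = 0.0095) and was 2.21 to 3.07 when any of the 8 libraries was left out. It was 2.29 without nhr-10 B12 replicate 1 and propionate replicate 2 together. The difference was not called with the stage scores as covariates (1.85, adjusted p = 0.996) or with a spread estimated from these 4 groups alone (0.13). The rise in nhr-10 mutants alone was not called without propionate replicate 2 (adjusted p = 0.34), without B12 replicate 1 (0.15), without B12 replicate 2 (0.11) or without the filter on low values (0.054), and it is uncertain where sams-1 shares reads with its close copies.

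A group of 65 genes, 43 higher and 22 lower, kept the propionate call in nhr-10 mutants whichever of the 4 libraries was left out. 53 of the 65 also differed from the wild-type response, and 6 were called in the same direction in wild type and 18 in nhr-68 mutants. No gene called in nhr-10 mutants differed by the test from the nhr-68 response. With the stage scores as covariates 7 of the 65 were still called. On average 42 of the 43 raised genes were also higher in nhr-68 mutants, and 22 of the 22 lowered genes were also lower. The median change of the raised genes was 1.87 in nhr-10 mutants, 1.01 in nhr-68 mutants and 0.09 in wild type, and that of the lowered genes was -1.36, -0.81 and -0.05. The nhr-10 value of these genes chose them, so these medians describe the group and test nothing.

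far-3 (V:12996787-12997522), a fatty acid and retinol binding protein, had the largest rise of all called genes. It read 5.1 and 16.8 FPKM on B12 and 395 and 458 FPKM with propionate, a rise of 5.36 ± 0.65 (adjusted p = 0.0015). With the stage scores as covariates its rise was 4.93 and not called (adjusted p = 0.18). In wild type it read 14.2 and 46.5 FPKM on B12 and 19.9 and 22.9 FPKM with propionate, so its groups overlapped only there. Of the 15 largest rises among genes whose groups did not overlap, 12 kept their call without propionate replicate 2 (adjusted p of the others 0.053 to 0.16) and 13 without B12 replicate 1 (0.074 to 0.14). Over all genes tested, 30% had both propionate libraries above both B12 libraries and 20% had both below. C45B2.2 (X:6084739-6085189), without an assigned role, went from 66.6 and 73.4 FPKM to 649 and 954 FPKM, a rise of 3.47 ± 0.26 (adjusted p = 7e-05). Its response exceeded that of wild type by 3.71 (95% interval 2.91 to 4.52, adjusted p = 0.0015). B0507.8 (V:8760622-8762961) went from 0.18 FPKM in both B12 libraries to 8.48 and 14.1 FPKM, and its neighbour ddn-1 (V:8758820-8760516) from 1.64 and 1.48 FPKM to 10.99 and 20.69 FPKM. In wild type both stayed below 1 FPKM in all 4 libraries. C08E3.1 and C08E3.13, which lie close together on chromosome II, rose by 4.09 ± 0.54 and 2.83 ± 0.34 (adjusted p = 0.0024 and 0.0012). cnc-11, a caenacin antimicrobial peptide, rose by 2.97 ± 0.33 (adjusted p = 0.0008), and F48C1.9, without an assigned role, by 2.74 ± 0.36 (0.0024).

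**Figure D3:**
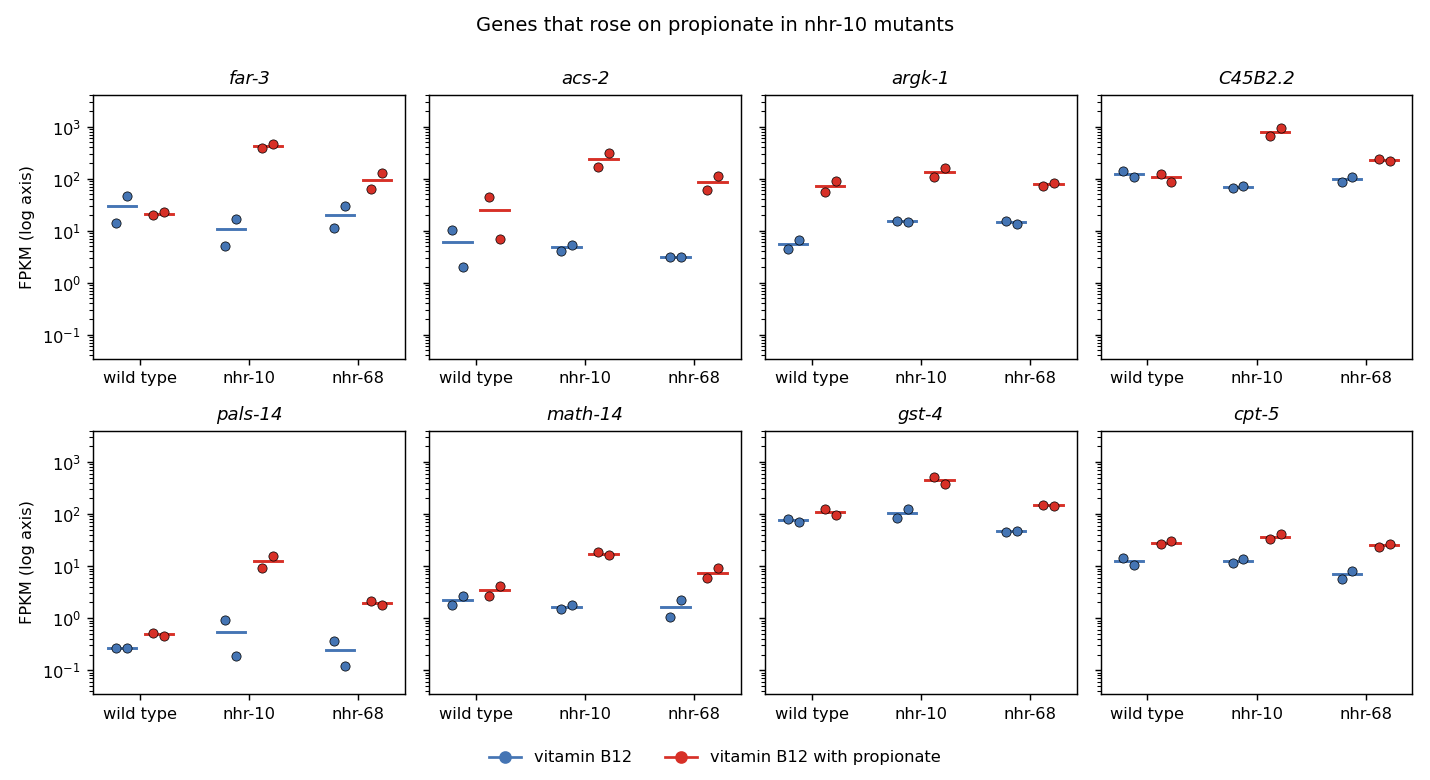
FPKM on a log axis in the 12 libraries of the 3 genotypes for 8 genes that rose with propionate in nhr-10 mutants; each point is a library and each line the mean of 2. far-3, C45B2.2, pals-14 and math-14 step up in nhr-10 mutants and less in nhr-68 mutants while the wild-type pairs lie nearly level, and argk-1 and cpt-5 step up in all 3 genotypes. For none of the 8 genes did the nhr-10 and nhr-68 responses differ by the test.

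pals genes, tied in C. elegans to the response to intracellular pathogens, were among these genes. pals-14 (I:13139122-13141898) read 0.91 and 0.19 FPKM on B12 and 9.38 and 15.9 FPKM with propionate, a rise of 3.13 ± 0.27 (adjusted p = 0.00017). 5 of the 21 pals genes tested rose, namely pals-14, pals-27, pals-39, pals-6 and pals-37, and 0 fell, with a family median of 0.50 and 23.8% called beside 7.24% of all genes. pals-14 and pals-27 kept their calls without propionate replicate 2, where the others had adjusted p up to 0.13, and without B12 replicate 1 only pals-37 lost its call (0.073). eol-1, which encodes a decapping-enzyme homologue that is part of that response, went from 0.29 FPKM in both B12 libraries to 4.71 and 7.45 FPKM, a rise of 2.43 ± 0.21 (adjusted p = 0.00017), and held whichever nhr-10 library was left out. In nhr-68 mutants eol-1 rose as well, by 1.38 (adjusted p = 0.012).

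Of the 22 math genes tested, which encode proteins with a MATH domain, 4 rose and 1 fell (22.7% called, beside 7.24% of all genes). In nhr-68 mutants 3 rose, beside 0.289% of all genes. math-14 read 1.49 and 1.78 FPKM on B12 and 18.69 and 16.22 FPKM with propionate, a rise of 2.81 ± 0.25 (adjusted p = 0.0002). math-15 rose by 2.34 and math-10 by 2.21, and the 3 lie between positions 1866381 and 1873348 of chromosome II. math-4, which starts at position 1778772 of the same chromosome, fell by 1.28. These 4 kept their calls whichever nhr-10 library was left out, and math-45 lost its call without propionate replicate 2 (adjusted p = 0.085) or B12 replicate 1 (0.11). Both families, like the histone, lipocalin-related and ule families below, were chosen after their values had been seen. Families chosen in the same way that moved less were the fbxa F-box genes, with 6 higher and 3 lower of 97 (9.28% called, median 0.06), and the fungus-induced genes, with 3 higher and 1 lower of 30 (13.3% called, median -0.47). Reads of near-identical pals and math copies may be shared between them.

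Of 23 genes of mitochondrial fatty acid breakdown tested, 6 rose and 0 fell, or 26.1% called beside 7.24% of all genes tested, and the list median was 0.45 beside 0.04 over all genes. acs-2 (V:15567394-15569897), a mitochondrial acyl-CoA synthetase that is induced on fasting, went from 4.16 and 5.43 FPKM to 164 and 318 FPKM, a rise of 5.32 ± 0.76 (adjusted p = 0.0031), and rose in nhr-68 mutants too, by 4.36 (adjusted p = 0.025). hacd-1, a hydroxyacyl-CoA dehydrogenase, read 78.7 and 63.8 FPKM on B12 and 172 and 228 FPKM with propionate, a rise of 1.47 ± 0.25 (adjusted p = 0.0086). The acyl-CoA dehydrogenases acdh-7 and acdh-10 rose by 0.97 and 0.82, and cpt-2, a carnitine palmitoyltransferase, by 0.51 (adjusted p = 0.049). The propionate libraries lay above the B12 libraries for all of them, as they did for 30% of all genes tested. Without propionate replicate 2 only cpt-5 kept its call (adjusted p of the others 0.053 to 0.29), and without B12 replicate 1 acs-2, cpt-5 and hacd-1 did (0.14 to 0.26).

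Other lipid genes moved in both directions. Over all genes 4.55% were higher and 2.68% lower. In peroxisomal breakdown 3 of 13 genes rose, namely acox-1.1 (0.71), daf-22 (0.76) and acox-3 (0.74), and the acyl-CoA oxidase genes acox-1.5 (-1.73) and acox-1.3 (-1.08) fell. acox-3 was called in wild type too, with a rise of 0.97 (limma adjusted p = 0.022). Of 10 lipase genes tested lipl-5, lipl-6, hosl-1 and fil-1 rose by 0.70 to 1.61, and lipl-2 fell by 1.87. fat-7, a stearoyl-CoA desaturase and the only called gene of 15 in fatty acid synthesis, went from 15.4 and 49.8 FPKM to 115.22 and 174.33 FPKM, a rise of 2.31 ± 0.51 (adjusted p = 0.025), with 0.22 without propionate replicate 2 and 0.18 without B12 replicate 1. Among 16 fatty acid binding genes far-3 rose, and the lipid-binding protein genes lbp-5 (-1.52) and lbp-7 (-1.04) fell. Of the called peroxisomal, lipase and binding genes only far-3 kept its call without propionate replicate 2 (adjusted p of the others 0.063 to 0.29), and only far-3 and lbp-5 did without B12 replicate 1 (0.063 to 0.24).

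Of 18 genes of the TCA and glyoxylate cycles 4 rose and 0 fell, or 22.2% called beside 7.24% of all genes, with a list median of 0.23 beside 0.04. icl-1, the joint isocitrate lyase and malate synthase of the glyoxylate cycle, read 74.1 and 118 FPKM on B12 and 334 and 473 FPKM with propionate, a rise of 2.07 ± 0.41 (adjusted p = 0.016). cts-1, the citrate synthase, rose by 0.83, mdh-2, the mitochondrial malate dehydrogenase, by 0.75, and idh-2, an isocitrate dehydrogenase, by 0.90. None of the 4 kept its call without propionate replicate 2 (adjusted p = 0.16 to 0.29) or without B12 replicate 1 (0.083 to 0.26). pck-2, a phosphoenolpyruvate carboxykinase, read 174 and 138 FPKM on B12 and 341 and 434 FPKM with propionate, a rise of 1.31 (adjusted p = 0.0016) that held whichever nhr-10 library was left out. 2 further arginine kinase genes of the 5 tested rose, W10C8.5 by 0.57 and F46H5.3 by 0.47, and only argk-1 kept its call under median-ratio scaling, without propionate replicate 2 (adjusted p of the others 0.29 to 0.32) or without B12 replicate 1 (0.17 to 0.24).

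Of 7 genes listed for glycine cleavage and serine metabolism 2 fell and 0 rose, beside 2.68% of all genes lower and 4.55% higher, with a list median of -0.08. gldc-1, the glycine decarboxylase, read 81.9 and 87.2 FPKM on B12 and 35.9 and 35.6 FPKM with propionate, a fall of -1.22 ± 0.18 (adjusted p = 0.0034) that held whichever nhr-10 library was left out. gcsh-1, the lipoate-carrying protein of the same complex, read 113.45 and 118.5 FPKM, then 45.6 and 43.3 FPKM, a fall of -1.36 ± 0.27 (adjusted p = 0.018), with 0.15 and 0.10 without propionate replicate 2 and B12 replicate 1. The propionate libraries lay below the B12 libraries for both, as they did for 20% of all genes tested. Both differed from wild type, by -1.14 (adjusted p = 0.029) and -1.92 (0.023).

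Genes of the hypoxia and hydrogen sulphide response rose in 5 of 14 cases with 0 falls, or 35.7% called beside 7.24% of all genes, and had a list median of 0.75. cysl-2, a cyanoalanine synthase that detoxifies cyanide, read 51.3 and 57.1 FPKM on B12 and 237 and 243 FPKM with propionate, a rise of 2.13 ± 0.39 (adjusted p = 0.012). In wild type it read 79.1 and 59.7 FPKM, then 43.7 and 14.4 FPKM, and the difference of the responses was 3.54 (adjusted p = 0.011). rhy-1, a regulator of the HIF-1 pathway, rose by 1.81, cysl-3 by 1.28, cysl-1 by 0.67 and cth-1, a cystathionine gamma-lyase, by 0.83. The rise of cth-1 was larger in wild type, at 1.89 (limma adjusted p = 0.0019), and the difference of -1.06 was not called (0.061). Only cysl-3 kept its call without B12 replicate 1 (adjusted p of the others 0.099 to 0.18) and none did without propionate replicate 2 (0.074 to 0.26). rips-1, a putative methyltransferase known from the sulphide response, went from 9.15 and 11.9 FPKM to 48.5 and 50.9 FPKM, a rise of 2.15 ± 0.23 (adjusted p = 0.0005). nit-1, a nitrilase, went from 8.33 and 7.14 FPKM to 24.2 and 28.9 FPKM, a rise of 1.66 ± 0.21 (adjusted p = 0.0022). Both held whichever nhr-10 library was left out and exceeded the wild-type response, by 3.07 (adjusted p = 0.0015) and 2.55 (0.0035). cbl-1, a cystathionine beta-lyase, rose by 1.31 (adjusted p = 0.0027) and also held. None of the rises of rips-1, nit-1 and cbl-1 was called with the stage scores as covariates (adjusted p = 0.14, 0.47 and 0.32).

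Of 22 genes of the oxidative stress response linked to SKN-1, 5 rose and 0 fell, beside 4.55% of all genes higher and 2.68% lower. gst-4 (IV:10142225-10143099), a glutathione S-transferase widely used as its reporter, read 85.1 and 124 FPKM on B12 and 514 and 387 FPKM with propionate, a rise of 2.11 ± 0.21 (adjusted p = 0.00034), and rose by 1.66 in nhr-68 mutants (adjusted p = 0.0032). dhs-8 rose by 1.92, gst-7 by 0.89, sod-1, a superoxide dismutase, by 0.56 and ctl-1, a catalase, by 0.85. gst-4 alone kept its call without propionate replicate 2 (adjusted p of the others 0.053 to 0.30), and gst-4 and dhs-8 without B12 replicate 1 (0.12 to 0.20). In the detoxification families, 4 rose and 1 fell of 37 glutathione S-transferases, 4 and 1 of 49 cytochromes P450, 4 and 1 of 29 short-chain dehydrogenases, and 4 and 4 of 58 glucuronosyltransferases. The shares called were 13.5%, 10.2%, 17.2% and 13.8%, beside 7.24% of all genes, so that of the P450 genes lay near the background. cyp-13B1 went from 1.17 and 0.80 FPKM to 14.02 and 32.37 FPKM, a rise of 3.50 ± 0.36 (adjusted p = 0.00043) that held whichever nhr-10 library was left out. gst-19 (2.23), gst-28 (-1.19) and cyp-29A3 (-1.36) held likewise. No called glucuronosyltransferase kept its call without propionate replicate 2 or without B12 replicate 1 (adjusted p = 0.061 to 0.33). Of the short-chain dehydrogenases 0 did without the former and dhs-8 and dhs-21 without the latter.

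Of 23 immune genes tested 2 rose and 7 fell in nhr-10 mutants, beside 4.55% and 2.68% of all genes, with a list median of -0.44. The same list gave 0 higher and 8 lower in wild type (median -0.83) and 0 and 5 in nhr-68 mutants (median -0.57), where 0.141% and 0.128% of all genes were lower. lys-2, a lysozyme, read 274 and 174 FPKM on B12 and 87.0 and 94.2 FPKM with propionate, a fall of -1.26 ± 0.23 (adjusted p = 0.011), beside -1.34 in wild type. clec-85, a C-type lectin, read 58.8 and 74.4 FPKM, then 28.7 and 27.2 FPKM, a fall of -1.21 ± 0.17 (adjusted p = 0.0029) and was lower in wild type too. clec-60 rose, from 1.11 and 1.58 FPKM to 7.14 and 17.5 FPKM. Only clec-85 kept its call without propionate replicate 2 (adjusted p of the others 0.053 to 0.35), and clec-85 and clec-60 did without B12 replicate 1 (0.085 to 0.22). ilys-5, an invertebrate-type lysozyme outside that list, fell from 1932 and 2522 FPKM to 842 and 888 FPKM, by 1.35 on the log2 scale (adjusted p = 0.0045), and held whichever nhr-10 library was left out.

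Several lists gave no call or nearly none. Over all genes tested 7.24% passed, a share at which short lists can give 0 calls. In nhr-10 mutants 0 of 11 regulators of lipid metabolism and the shunt, 0 of 10 heat shock genes, 0 of 78 cytosolic ribosomal protein genes and 0 of 11 genes of branched-chain amino acid breakdown passed, and 1 of 9 genes of the mitochondrial unfolded protein response (gpd-2, 0.62). Among 178 nuclear hormone receptor genes 6 rose and 1 fell, or 3.93% called, below the 7.24% of all genes. None of these 8 calls was kept without propionate replicate 2 (adjusted p = 0.14 to 0.26) or without B12 replicate 1 (0.070 to 0.20).

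The largest falls were of genes that rise as larvae become adults. All 6 vitellogenin genes, which encode yolk proteins, fell with propionate in nhr-10 mutants. Summed over the 6, they read 8130 and 3305 FPKM on B12 and 1213 and 103.8 FPKM with propionate. vit-2 read 2280 and 939 FPKM on B12 and 419.67 and 25.96 FPKM with propionate, a fall of -3.78 ± 1.03 (adjusted p = 0.045). col-19 (X:421707-422691), the adult cuticle collagen, read 3273 and 2128 FPKM, then 534 and 26.6 FPKM, a fall of -4.44 ± 0.99 (adjusted p = 0.026). col-8 read 908 and 122 FPKM on B12 and 8.75 ± 10.9 FPKM (SD, n = 2) with propionate, the largest fall of all called genes (-5.81 ± 1.16, adjusted p = 0.017). The propionate libraries lay below the B12 libraries for all of these, as they did for 20% of all genes tested.

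Of 141 cuticle collagen and related genes tested 21 rose and 33 fell, or 38.3% called beside 7.24% of all genes. 9 of 29 major sperm protein genes and 3 of 5 ule genes fell. 7 of 15 moulting genes rose, among them noah-2 (2.13) and mlt-11 (2.06), whose products build or regulate the new cuticle, as did 5 of 7 lipocalin-related genes and 20 of 61 histone genes. The 15 moulting genes summed to 312 and 573 FPKM on B12 and 1042 and 1376 FPKM with propionate. In wild type none of these families gave a call, and the vitellogenin median there was 1.31 with propionate, in the other direction. In nhr-68 mutants it was -1.36, also without a call. The cuticle collagen gene dpy-17, which the family chosen by symbol leaves out, did rise in wild type, by 1.94 (limma adjusted p = 0.0040). In nhr-10 mutants it rose by 1.03 (0.036). Without propionate replicate 2, 0 of the 6 vitellogenin calls and 1 of the 54 collagen calls (col-169) were kept, and without B12 replicate 1, 0 and 2. None of the moulting, major sperm protein, histone, lipocalin-related or ule calls was kept without either library (adjusted p = 0.061 to 0.33). Values of vit-3, vit-4 and vit-5, of the msp and histone copies, and of col-126 and col-127, which had identical values, may be shared among alike genes.

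**Figure D4:**
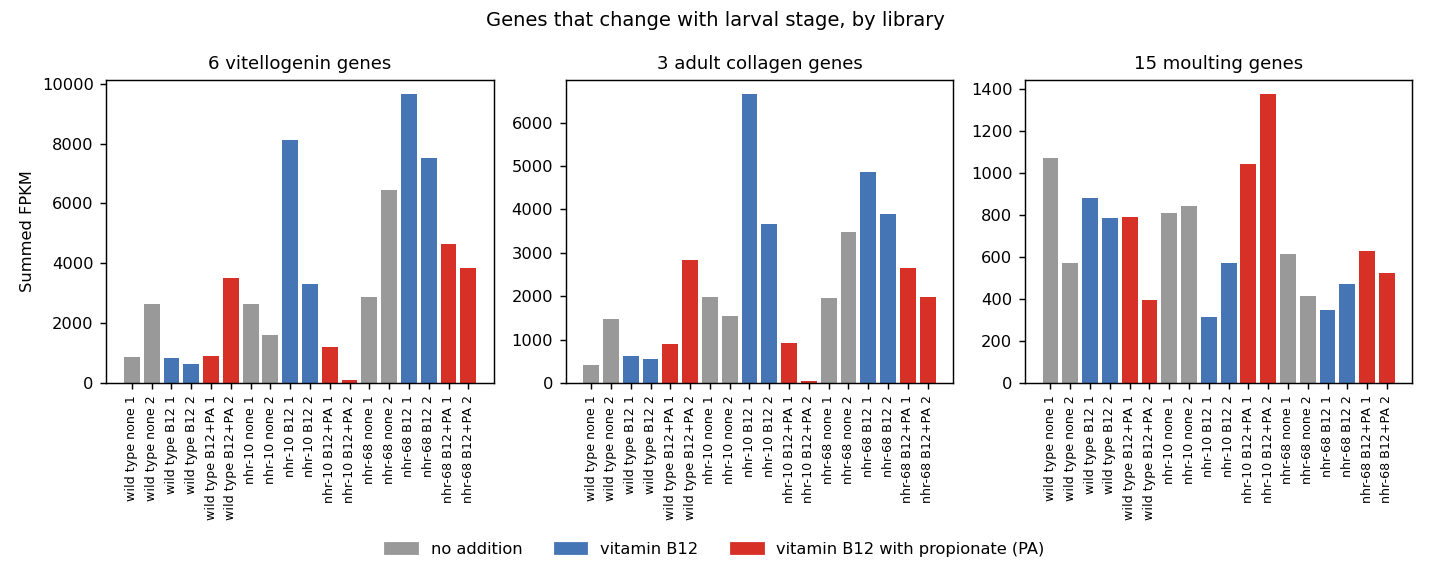
Summed FPKM of 6 vitellogenin genes, of the adult collagen genes col-7, col-19 and col-119, and of 15 moulting genes in each of the 18 libraries, as bars from 0. B12 replicate 1 of the nhr-10 mutants stands high for vitellogenin (8130 FPKM) and adult collagen and low for moulting genes, and propionate replicate 2 stands at the opposite end (103.8 FPKM).

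These genes moved with the treatment, and no other measure of larval stage was used here. 2 scores, the first 2 principal components of 162 collagen, moulting and vitellogenin genes, held 60.8% and 27.6% of their variance. On the first, B12 replicates 1 and 2 of the nhr-10 mutants stood at 16.8 and 5.26 and propionate replicates 1 and 2 at -5.13 and -17.7, the last of which also stood apart on the second score (21.3). In wild type B12 stood at -13.5 and -16.9 and propionate at -9.72 and 2.89. With both scores as covariates the nhr-10 response had 8 calls, 7 of them among the 1127. These 7 were C45B2.2 (2.85), B0507.8 (2.64), pals-14 (2.81), math-14 (2.91), gst-4 (2.07), the pseudogene WBGene00021233 (2.50) and Y54G2A.10 (-2.02). On the summed levels, wild type ran from 819 and 629 FPKM of vitellogenin on B12 to 905 and 3519 FPKM with propionate, and nhr-68 mutants from 9653 and 7513 FPKM to 4657 and 3853 FPKM. Because the scores moved with the treatment, the fit with the scores cannot tell larval stage and propionate apart. The part of larval stage in any gene group was not tested.

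**Figure D5:**
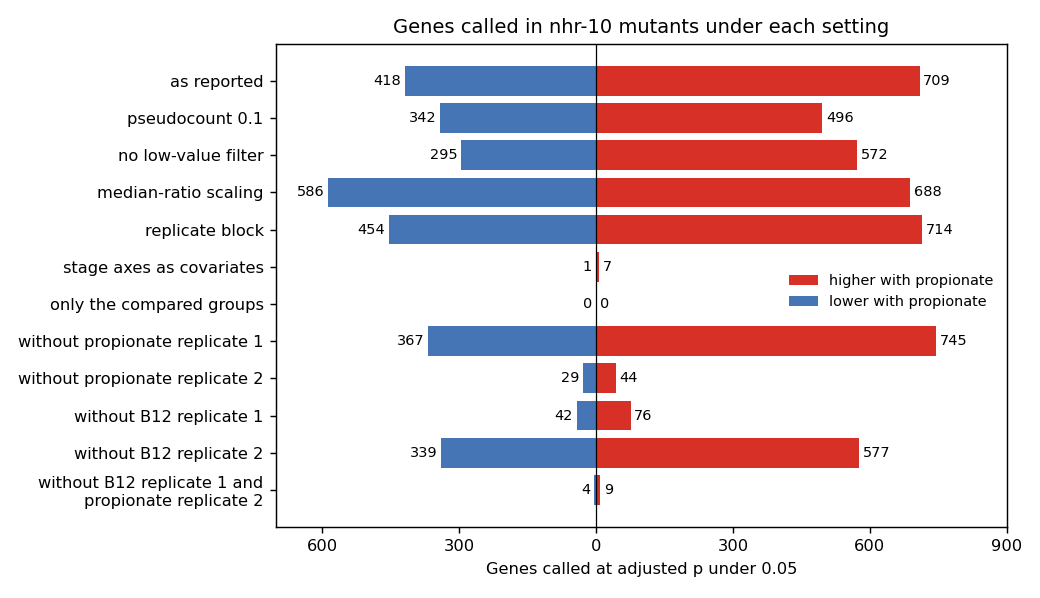
Number of genes called higher (right) and lower (left) with propionate in nhr-10 mutants at an adjusted p under 0.05, for the reported fit and each alternative. The count is 709 and 418 as reported, 44 and 29 without propionate replicate 2, 76 and 42 without B12 replicate 1, and 7 and 1 with the stage scores.

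Marker genes of the tissues were present in all 4 libraries. Over all genes tested 7.24% passed, a share at which small sets can give 0 calls. 0 of 8 intestinal, 0 of 7 body wall muscle, 0 of 6 pharyngeal, 0 of 8 neuronal and 0 of 8 oocyte and germline markers passed the test. 1 of 7 sperm markers fell, and of 6 hypodermal markers dpy-7 and wrt-2 rose and col-19 fell. None of these 4 calls was kept without propionate replicate 2 or without B12 replicate 1 (adjusted p = 0.14 to 0.31). The summed intestinal markers read 4707 and 5032 FPKM on B12 and 3975 and 4031 FPKM with propionate.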

How the data were processed

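The deposited table holds FPKM values made by the authors for 20953 genes, 1 column per library. HISAT, Bowtie2 and RSEM and the build WBcel235 are named per the submitters' processing notes, without versions or settings. RSEM divides reads that fit several genes by a statistical estimate. Whole animals were collected, RNA was made into libraries by a company per the labels' protocols, and replicates were kept apart.

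The test took in the 15575 genes that reached 1 FPKM in 2 or more of the 18 libraries. The limma package (3.58.1, R 4.3.3) modelled log2(FPKM + 1) with 9 group means, an intensity trend, and 9 residual and 3.60 prior degrees of freedom. Calls are at a two-sided Benjamini-Hochberg adjusted p under 0.05. The added 1 shrinks fold changes of genes near 1 FPKM. Differences between genotypes' responses were contrasts of the same fit. It was checked on simulated data. Intervals are 95%, for a single gene and unadjusted.

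The table gives no counts. Depth, estimated from the step between low FPKM values, was about 13200000 to 13520000 fragments in the 4 libraries of the comparison and 12860000 to 14460000 over all. 1 fragment then adds about 0.05 FPKM to a gene of 1500 bases. Total FPKM per library was 841999.6 to 920001.8, and replicates correlated at 0.97 to 0.99 across genes. Names and positions came from Ensembl release 115, where 208 identifiers were not found.

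Genes were named by rule: nhr-10, nhr-68 and the propionate lists; the called genes with non-overlapping groups that had the 15 largest rises and the 15 largest falls; up to 6 called members of each list; and the 10 smallest adjusted p in each difference test. Genes called in all 3 genotypes and those kept whichever nhr-10 library was left out were named after their values were seen. Members and lists were chosen with earlier results of these data known. The glycine list also holds sdha-1, a TCA cycle gene, by mistake. Alternatives were another pseudocount (0.1), no filter, median-ratio scaling, a replicate block, stage scores, only the compared groups, and each replicate left out.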

Additional observations from a re-analysis of the deposited data

Results flagged for a closer look

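Responses that differed between genotypes were found by a direct test of the difference (limma, Benjamini-Hochberg adjusted p under 0.05). Against wild type 1323 genes differed, and against nhr-68 mutants 5 did. Against wild type, on the log2 scale, the nhr-10 response was higher by 3.71 at C45B2.2, 3.24 at B0507.8, 3.07 at rips-1, 2.55 at nit-1 and 2.34 at eol-1. The nhr-10 response was lower than that of wild type at acdh-1 (-4.11), acdh-2 (-4.85), C09B8.4 (-3.91), hach-1 (-2.66), E04D5.5 (-2.12), folt-2 (-1.75), ugt-53 (-1.51) and dhs-25 (-1.39). E04D5.5, without an assigned role, read 10.7 and 15.9 FPKM on B12 and 10.1 and 8.99 FPKM with propionate in nhr-10 mutants, and rose in wild type from 10.6 and 10.6 FPKM to 34.5 and 39.2 FPKM. Against nhr-68 mutants the response was lower at acdh-2 (-5.93), C09B8.4 (-5.76), folt-2 (-2.56), ugt-53 (-2.55) and dhs-25 (-2.32). Without single libraries, dhs-25 against wild type reached an adjusted p of 0.085 (without wild-type propionate replicate 2), folt-2 0.054 and ugt-53 0.11 (both without nhr-10 propionate replicate 2).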

How the results depend on the processing

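The count of 1127 genes became 838 with a pseudocount of 0.1, 867 without the filter, 1274 with median-ratio scaling and 1168 with the replicate block. It moved to 8 with the stage scores, 0 with only the compared groups, 13 without B12 replicate 1 and propionate replicate 2 together (an alternative chosen after seeing the data), and between 73 and 1112 with 1 replicate left out. The 1323 differences from wild type became 1219 with the pseudocount, 1522 with the scaling and 1479 with the block, and moved to 645 without the filter, 2 with the stage scores, 2 with only the compared groups and 10 without those libraries together, and ranged from 45 to 2258 with 1 replicate left out. The 5 differences from nhr-68 mutants became 4 with the pseudocount and 4 with the stage scores, and moved to 30 without the filter, 8 with median-ratio scaling, 8 with the replicate block, 1 with only the compared groups and 2 without those libraries together, and ranged from 4 to 67 (without nhr-10 propionate replicate 1). The labels do not say what a replicate number stands for. With 2 replicates a group, differences between replicates correlated at 0.09 between the compared treatments and at -0.38 to 0.56 over all 36 pairs of groups, so pairing was not assumed; with the block 1022 of the 1127 genes were still called.

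With the stage scores 11 genes changed direction, to vit-5 0.93, vit-4 0.21, vit-3 0.31, vit-6 0.67, vit-2 1.04, col-7 0.57, col-119 0.82, col-62 0.54, col-81 0.18, col-179 0.39 and col-19 0.035; these genes helped build the scores. No named gene reversed under another setting. The cause of the other moves was not tested. At the estimated depth, values under about 0.05 FPKM rest on at most 1 fragment in a gene of 1500 bases.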

Other observations

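Among the 65 genes kept whichever nhr-10 library was left out, several with assigned roles lie outside the lists. nas-20, an astacin-type metalloprotease, read 45.1 and 24.8 FPKM on B12 and 2.85 and 0.19 FPKM with propionate in nhr-10 mutants, a fall of -4.01 (limma adjusted p = 0.0029), against a wild-type value of 1.78 that was not called. glna-2, a glutaminase, fell from 16.9 and 12.2 FPKM to 5.38 and 6.46 FPKM, by 1.15 on the log2 scale (adjusted p = 0.0034). gba-4, a glucocerebrosidase, fell from 80.7 and 88.5 FPKM to 34.6 and 22.2 FPKM, by 1.57 (adjusted p = 0.0027). spin-3, a spinster-type lysosomal transporter, fell by 1.39 (adjusted p = 0.0016), and lec-9, a galectin, by 0.81 (0.0077). vang-1, the planar cell polarity protein, rose from 0.48 and 0.44 FPKM to 2.81 and 3.62 FPKM, by 1.52 (adjusted p = 0.0016). dct-16, one of the most abundant of these, fell from 5529 and 6175 FPKM to 2346 and 2324 FPKM, by 1.32 (adjusted p = 0.0045). The treatment groups did not overlap for any of those whose values are given. Over all genes tested, 30% had both propionate libraries above and 20% both below. With the stage scores as covariates none of the genes named in this paragraph was called (limma adjusted p = 0.17 to 0.46). In that fit nas-20 changed by -1.45. These genes were chosen after their values were seen.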
